A study of Homo sapiens with 12 samples.

Results

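The response of JQ1-resistant U87 cells to the BET degrader dBET6 was read from 4 of the 12 libraries of the series, as the difference between 2 libraries of resistant cells exposed to 1000 nM dBET6 for 24 h and 2 libraries of the same resistant cells kept in DMSO for 24 h. U87 (U87-MG) is an established human glioblastoma line, and the resistant derivative is labelled only as resistant to JQ1. How it was selected, or whether it is 1 clone and was kept in JQ1 before the exposure, is not stated by any source used here. Polyadenylated RNA was sequenced, and the features described are genes: 19093 of the 52271 genes that could be rebuilt from the deposited transcript counts were abundant enough to be tested. Of the other 8 libraries, 6 served as comparators: 2 of resistant cells in 1000 nM JQ1 for 24 h, 2 of parental U87 cells in 1000 nM dBET6 for 24 h and 2 of parental cells in DMSO for 24 h. The 2 remaining ones, of parental cells in JQ1, entered only the shared estimate of spread. The labels do not say that replicates were separate cultures, so p-values measure the spread between these libraries, which may be technical.

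BET proteins, BRD2 and BRD3 among them, bind acetylated histones through their bromodomains, and the family helps the kinase complex P-TEFb release paused RNA polymerase II into elongation. JQ1 occupies the bromodomains and displaces BET proteins from chromatin. dBET6 carries a JQ1-type BET ligand joined by a linker to a thalidomide-type ligand of cereblon, which presents substrates to a CUL4 ubiquitin ligase, so that BET proteins are ubiquitinated and degraded rather than only displaced. RNA data show the transcripts left after such treatment and not the BET proteins themselves.

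The 4 libraries held 24732177 and 27679190 estimated counts in dBET6 and 40388589 and 33617240 in DMSO, and the smallest and the largest of all 12 libraries are among these 4. Across genes, Pearson's r was 0.982 between the dBET6 libraries and 0.994 between the DMSO libraries, and both pairs differed by more than counting noise. The composition of the RNA differed between the groups. The 50 most abundant genes took 31.0% and 30.4% of counts in dBET6, against 12.4% and 12.9% in DMSO. The 13 mitochondrially encoded mRNAs, which a separate polymerase transcribes, took 3.94% and 3.73% in dBET6 and 1.76% and 2.13% in DMSO, and the cytosolic ribosomal protein genes took 12.5% and 13.1% against 5.56% and 5.69%. Fewer genes reached 1 CPM (counts scaled by library size) in dBET6, with 12310 and 12201 genes, than in DMSO, with 13232 and 13313.

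**Figure D1:**
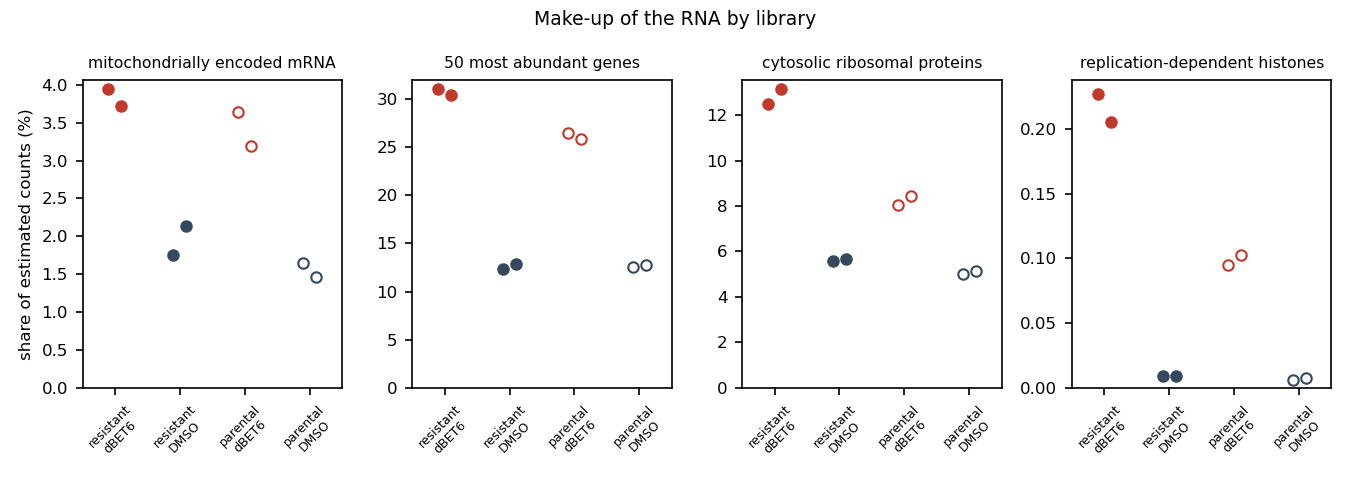
Shares of estimated counts (percent) taken by mitochondrial mRNAs, the 50 most abundant genes, ribosomal protein genes and replication-dependent histones, with 1 point per library of resistant (filled) and parental (open) cells, dBET6 left of DMSO. Both resistant dBET6 libraries lie above both resistant DMSO libraries for the 50 most abundant genes (31.0% and 30.4% against 12.4% and 12.9%) and for the ribosomal protein genes.

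Because a few genes took so much of the dBET6 libraries, how libraries are put on a common scale sets where no change lies. Levels below are CPM scaled by the trimmed mean of M-values (TMM), and log2 fold changes are dBET6 over DMSO with their standard errors (n = 2 libraries each), so that a fall by 2 is a fall on the log2 scale. Under TMM the median gene changed by -0.06 on the log2 scale. Scaling by total counts moved every log2 fold change by about -1.07 and scaling by the mitochondrial mRNAs by about -2.06, whereas relative log expression (RLE) scaling moved it by 0.18. A fall under TMM is therefore a fall under the total and mitochondrial scalings too, while a rise is not. For each gene group the number called in 1 direction under all 4 scalings is given beside the TMM count. With 2 libraries a group an exact permutation test cannot go below p = 0.33, so calls come from edgeR's quasi-likelihood test over all 12 libraries with a Benjamini-Hochberg adjusted p under 0.05. In bulk RNA, fewer cells of a kind and less RNA per cell cannot be told apart.

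dBET6 changed most of the transcriptome of the resistant cells. Of 19093 genes, 6813 (35.7%) were higher and 7542 (39.5%) lower in dBET6 than in DMSO, and the 2 libraries of each group did not overlap at 87.1% of genes. Among protein-coding genes 34.0% were higher and 47.2% lower. Changes of at least 4-fold were found for 2764 genes (14.5%) upward and 2660 (13.9%) downward, and changes of at least 16-fold for 941 (4.93%) upward and 250 (1.31%) downward. Under all 4 scalings 1381 genes (7.23%) were higher and 6875 (36.0%) lower. The share of called genes that were higher was 47.5% under TMM, 52.2% under RLE, 22.5% under total-count and 8.94% under mitochondrial scaling. All counts of members below are to be read against these percentages.

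The genes with the largest rises, among protein-coding genes with a mean of at least 10 CPM, were nearly silent in DMSO. BTG2, an antiproliferative gene that p53 can induce, reached 982 and 865 CPM in dBET6, against 2.0 and 1.91 CPM in DMSO (log2 fold change 8.88 ± 0.13, adjusted p = 4.15e-27). ANKRD1, which encodes an ankyrin-repeat protein of muscle and is a target of YAP and TEAD, had 148 and 165 CPM in dBET6 and 0.160 and 0.143 CPM in DMSO. SEMA4A, a semaphorin, was at 74.4 and 70.0 CPM in dBET6 and rested on 3 counts in the DMSO libraries together, a ratio of 2206 with a 95% exact counting interval of 754 to 10700. XIRP1, an actin-binding protein of striated muscle, rested on 2 DMSO counts (ratio 1993, interval 551 to 16480). In each of these genes both dBET6 libraries stood far above both DMSO libraries, but genes were named here only if the groups did not overlap. RASD2, a small GTPase, PLEKHA6, PKNOX2, a homeodomain factor, and CLDN6, a claudin of tight junctions, also stood among the 12, with 37.4 to 66.4 CPM in dBET6 and at most 0.167 CPM in DMSO. The fitted values of genes this close to 0 in DMSO depend on single libraries: XIRP1 was 9.67 without DMSO replicate 1 and 13.41 without DMSO replicate 2, RASD2 13.93 and 9.52, and PLEKHA6 10.46 and 8.55, in the same order.

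Myeloid genes stood among these near-silent genes. FCGR1A, the high-affinity Fc gamma receptor of monocytes, had 116 and 111 CPM in dBET6 and 0.0600 and 0.0956 CPM in DMSO, and its near-identical copy FCGR1B rested on 1788 counts in dBET6 and 2 in DMSO (ratio 2682, interval 741 to 22160). How the counting divided reads between these copies is uncertain, and the fitted value of FCGR1B was 13.81 without DMSO replicate 1 and 10.33 without DMSO replicate 2. LYZ, lysozyme, was at 36.8 and 40.7 CPM in dBET6 against 0.0800 and 0.0478 CPM in DMSO. Of the listed myeloid markers, 3 of the 4 tested were higher: CD68, a lysosomal membrane protein, with 1206 and 1233 CPM in dBET6 and 284 and 291 CPM in DMSO, ITGAM with 7.97 and 7.85 CPM against a total of 3 counts (ratio 242, interval 81.8 to 1182) and CD14 with 3.16 and 1.62 CPM against 3 counts (ratio 72.0, interval 23.7 to 357). In TPM, CD68 differed less, with 359 and 354 TPM in dBET6 and 256 and 259 TPM in DMSO. CSF1R, the remaining tested marker, did not pass, with 21.3 and 20.6 CPM in dBET6 and 17.7 and 17.3 CPM in DMSO. Its TPM had the opposite order, 7.0 and 5.4 in dBET6 and 20.6 and 20.3 in DMSO. The summed level of that list was 1239 to 1263 CPM in dBET6 and 302 to 308 CPM in DMSO, nearly all of it CD68. The defining markers AIF1 and TYROBP were at 0 in all 4 libraries, and PTPRC was at most 0.200 CPM. What part such markers had in the results was not tested. Neural stem markers summed to 125 to 126 CPM in dBET6 and 67.6 to 68.3 CPM in DMSO. Nearly all of that sum was NES, nestin, at 125 and 123 CPM in dBET6 and 67.4 and 67.9 CPM in DMSO, which in TPM had the opposite order, 8.75 and 8.66 TPM in dBET6 and 16.7 and 16.4 TPM in DMSO. Neuron markers summed to 14.6 to 15.8 CPM in dBET6 and 32.7 to 34.4 CPM in DMSO, and oligodendrocyte lineage markers to 0.756 to 1.06 CPM in dBET6 and 1.74 to 1.79 CPM in DMSO. Lymphoid, erythroid, endothelial and epithelial lists each summed to under 5 CPM in every library. The mesenchymal list, which includes VIM, CD44 and FN1, summed to 38101 to 38595 CPM in dBET6 and 9815 to 9926 CPM in DMSO, and the astrocyte list, with GFAP, to 5.08 to 5.73 CPM in dBET6 and 5.19 to 5.36 CPM in DMSO. VIM itself had 19154 and 18516 CPM in dBET6 and 5133 and 5171 CPM in DMSO (1.87 ± 0.09), a rise that under mitochondrial scaling became -0.20.

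The genes with the largest falls had varied functions, with genes of mitosis and DNA repair among them. IL1B, the inflammatory cytokine interleukin 1 beta, was at 2.13 and 2.99 CPM in dBET6, against 140 and 143 CPM in DMSO (-5.78 ± 0.14, adjusted p = 4.94e-23). LMNB1, the nuclear lamina protein lamin B1, was at 1.79 and 1.31 CPM in dBET6 and 62.2 and 60.2 CPM in DMSO (-5.31 ± 0.14). GDF5, a ligand of the bone morphogenetic protein family (-5.27), THBD, the thrombin receptor thrombomodulin (-5.01), VANGL1, a planar polarity protein (-4.81), and TMEM246 (-4.89) were of the same size. MGA, a partner of MAX that opposes MYC at E-boxes, fell by 4.89, or by 5.51 without dBET6 replicate 1, with 2.54 and 1.25 CPM in dBET6 against 55.0 and 55.9 CPM in DMSO. BARD1, the partner of BRCA1, KIF20B, a mitotic kinesin, and UMPS, the enzyme of the last steps of UMP synthesis, fell by 4.74, 4.69 and 4.67. DUSP6, the phosphatase that inactivates ERK, was at 7.21 and 7.42 CPM in dBET6 and 194 and 195 CPM in DMSO. The groups of these genes do not overlap because the naming rule required it, so their separation is no added result. CWC22, a spliceosome component, had the lowest fitted value (-5.92 ± 0.50), but its dBET6 libraries held 0 and 0.623 CPM, its rebuilt level was 0.71 of the deposited FPKM, and it was -5.04 without dBET6 replicate 1 and -12.44 without dBET6 replicate 2.

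**Figure D2:**
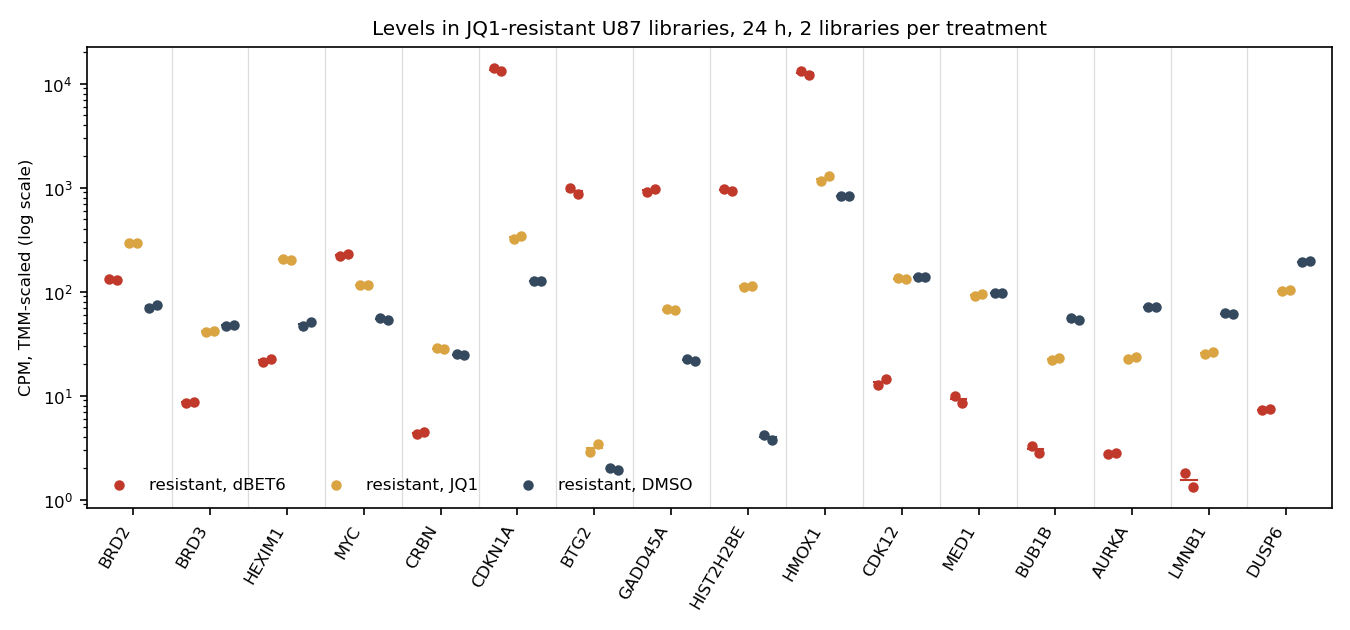
Levels of 16 named genes in TMM-scaled CPM on a log axis, with 1 point per library of resistant cells in dBET6, JQ1 and DMSO from left to right and a short line at each mean. The p53-responsive and histone genes are high in both dBET6 libraries (CDKN1A 14122 and 13131 CPM against 125 and 126 CPM), whereas mitotic genes such as AURKA are low in both (2.75 and 2.80 CPM against 71.0 and 70.5 CPM).

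The target family and its cofactors came down on balance. Of 32 BET, P-TEFb and elongation genes tested, 7 were higher and 24 lower (median -1.04, beside -0.06 over all genes), and under all 4 scalings 0 were higher and 24 lower. BRD3 fell to 8.52 and 8.72 CPM in dBET6 libraries, against 46.7 and 47.9 CPM in DMSO libraries (-2.45 ± 0.11, adjusted p = 2.04e-17). BRD2 had 131 and 130 CPM in dBET6 and 69.7 and 74.3 CPM in DMSO, a value of 0.86 ± 0.08 that turned to -0.22 under total-count and -1.20 under mitochondrial scaling. These BET mRNAs differed in direction under TMM, and the rebuilt BRD2 and BRD3 levels were 0.90 and 0.87 of the deposited FPKM. HEXIM1, the inhibitor that holds P-TEFb inactive in the 7SK particle and that rises in many cells on BET inhibitors, was at 21.1 and 22.6 CPM in dBET6 and 47.0 and 51.0 CPM in DMSO (-1.16 ± 0.11, adjusted p = 1.08e-10). MEPCE, which caps and stabilises 7SK RNA, was at 15.7 and 14.6 CPM in dBET6 and 117 and 117 CPM in DMSO. CDK12, an elongation-phase kinase of the polymerase tail, fell by 3.34, and LEO1, a subunit of the PAF1 complex, by 4.19. SUPT5H, the large subunit of DSIF, had 406 and 349 CPM in dBET6 and 235 and 239 CPM in DMSO (0.67 ± 0.09), which became -0.40 under total-count and -1.40 under mitochondrial scaling. SERPINI1, whose transcript is used as a readout of BET inhibition, was at 2.2 and 2.55 CPM in dBET6 and 0.380 and 0.287 CPM in DMSO (2.81 ± 0.29, adjusted p = 8.88e-10).

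Mediator bridges enhancer-bound factors and polymerase II, and 26 of its 32 tested genes were lower and 4 higher (median -1.69, with 0 higher and 24 lower under all 4 scalings). MED1 was at 9.96 and 8.47 CPM in dBET6 and 97.9 and 95.9 CPM in DMSO (-3.40 ± 0.11). MED8 fell by 3.25. MED26, the subunit through which Mediator meets elongation factors, was the exception among those named, with 126 and 113 CPM in dBET6 and 27.0 and 24.5 CPM in DMSO (2.21 ± 0.10, which shrank to 0.14 under mitochondrial scaling). The Integrator complex, which cleaves nascent transcripts, had 12 of 14 tested genes lower and 2 higher (median -1.63, with 0 higher and 11 lower under all 4 scalings). ASUN fell by 3.09, whereas INTS1 had a value of 1.95 ± 0.10 under TMM and -0.12 under mitochondrial scaling.

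Cereblon was lower, as were most genes of a wider list of its ligase and the NEDD8 pathway, although the ligase adaptor DDB1 was not under TMM. Of 24 cereblon ligase and NEDD8 pathway genes, 16 were lower and 7 higher (median -1.01), with 15 lower and 0 higher under all 4 scalings. CRBN (ENSG00000113851), cereblon itself, was at 4.26 and 4.42 CPM in dBET6 and 25.1 and 24.3 CPM in DMSO (-2.51 ± 0.14, adjusted p = 2.49e-15). UBA3, the catalytic subunit of the NEDD8-activating enzyme, fell by 2.90, and COPS5, the catalytic subunit of the COP9 signalosome, which removes NEDD8 from cullins, by 2.07. DDB1, the adaptor that links cereblon to CUL4, had 690 and 762 CPM in dBET6 and 334 and 323 CPM in DMSO, and the summed level of the list was 2379 to 2571 CPM in dBET6 and 1987 to 2055 CPM in DMSO. DDB1 and NEDD8 were higher under TMM, at 1.15 ± 0.09 and 1.89 ± 0.09, values that became -0.92 and -0.18 under mitochondrial scaling.

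Genes of mitosis fell almost as a block. Of 52 such genes tested 50 fell and 2 rose (median -2.32), and under all 4 scalings 50 were lower and 0 higher. AURKA, the kinase of spindle poles, was at 2.75 and 2.80 CPM in dBET6 and 71.0 and 70.5 CPM in DMSO (-4.67 ± 0.13, adjusted p = 4.35e-21). BUB1B, the checkpoint protein BUBR1, was at 3.30 and 2.80 CPM in dBET6 and 55.8 and 53.3 CPM in DMSO (-4.16 ± 0.13), and ASPM, a spindle pole protein, at 5.63 and 7.73 CPM in dBET6 and 104 and 99.4 CPM in DMSO (-3.92 ± 0.12). In all of these, which were named for their small p-values, the groups were far apart. The 2 exceptions were FOXM1, the transcription factor of many of these genes, with 281 and 303 CPM in dBET6 and 123 and 122 CPM in DMSO (1.25 ± 0.10), and BIRC5, survivin, with 104 and 116 CPM in dBET6 and 81.1 and 79.6 CPM in DMSO (0.45 ± 0.09). FOXM1 turned to -0.82 under mitochondrial scaling, and BIRC5 to -0.63 under total-count and -1.62 under mitochondrial scaling.

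Mitotic genes share 2 promoter elements, the CHR, bound by the DREAM and MMB complexes, and the CCAAT box, bound by NF-Y. The RefSeq promoter windows (build GRCh38.p14, 250 bases before to 50 after the start) of 2 genes that fell are shown to let the elements be seen, in lower case with matches to TTTGAA (CHR) and CCAAT on either strand in capitals. They are BUB1B on the plus strand of chr15:40160819-40161118 and ASPM on the minus strand of chr1:197146620-197146919.
BUB1B: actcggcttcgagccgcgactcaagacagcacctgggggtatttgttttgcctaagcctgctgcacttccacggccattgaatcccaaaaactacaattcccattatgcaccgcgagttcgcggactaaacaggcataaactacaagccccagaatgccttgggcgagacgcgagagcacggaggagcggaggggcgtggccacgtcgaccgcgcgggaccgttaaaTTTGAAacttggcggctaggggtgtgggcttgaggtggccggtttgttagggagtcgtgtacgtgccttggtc
ASPM: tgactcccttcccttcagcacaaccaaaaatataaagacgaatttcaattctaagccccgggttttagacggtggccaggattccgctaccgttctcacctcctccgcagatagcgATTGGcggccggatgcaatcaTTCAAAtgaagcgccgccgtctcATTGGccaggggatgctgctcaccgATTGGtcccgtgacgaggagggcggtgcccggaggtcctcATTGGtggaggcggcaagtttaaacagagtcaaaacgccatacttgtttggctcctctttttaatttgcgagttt
The BUB1B window holds 1 CHR and no CCAAT, and the ASPM window 1 CHR, read on the opposite strand, and 4 CCAAT boxes. A window was available for 44 of the 52 genes. TTTGAA was present in 30 of them (68.2%), against 10.4% of the 11497 windows of tested protein-coding genes, and CCAAT in 33 (75.0%), against 36.5%. A match describes letters and not binding, and the members were not chosen without knowledge of their response.

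Most genes of DNA replication fell. Of 50 replication and E2F target genes, 39 were lower and 8 higher (median -1.54, with 37 lower and 1 higher under all 4 scalings). RFC4, a subunit of the clamp loader, was at 2.2 and 2.37 CPM in dBET6 and 40.4 and 39.3 CPM in DMSO (-4.12 ± 0.14, adjusted p = 1.40e-19). MYBL2, the MYB factor of the MMB complex, DTL, a CUL4 substrate receptor that acts in S phase, and E2F1 fell by 3.93, 4.02 and 1.05. The DTL level was 2.06 and 3.37 CPM in dBET6 and 44.9 and 44.0 CPM in DMSO, and that of E2F1 67.4 and 65.9 CPM in dBET6 and 138 and 138 CPM in DMSO. TK1, the cytosolic thymidine kinase, went the other way, with 746 and 706 CPM in dBET6 and 114 and 115 CPM in DMSO (2.66 ± 0.10), a rise under all 4 scalings. The motif GGCGGGA, a form of the E2F site, was present in 23 of 41 windows of this list (56.1%), against 24.4% of all windows, on either strand. The window of RFC4, on the minus strand of chr3:186806433-186806732, is shown as a replication gene with the motif in capitals on both strands.
RFC4: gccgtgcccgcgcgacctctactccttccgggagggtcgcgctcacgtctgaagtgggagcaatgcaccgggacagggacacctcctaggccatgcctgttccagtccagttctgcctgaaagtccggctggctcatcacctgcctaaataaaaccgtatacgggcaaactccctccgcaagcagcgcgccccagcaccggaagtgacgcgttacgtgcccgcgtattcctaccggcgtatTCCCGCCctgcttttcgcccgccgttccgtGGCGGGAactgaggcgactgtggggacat
Homologous recombination and Fanconi genes fell in 36 of 39 cases and rose in 0 (median -2.34, 36 lower under all 4 scalings). EXO1, a resection nuclease, was at 2.2 and 1.74 CPM in dBET6 and 27.2 and 26.2 CPM in DMSO, and PALB2, which ties BRCA1 to BRCA2, fell by 3.15. FANCD2, FANCI and XRCC3 did not pass the test, with -0.18, 0.16 and 0.09.

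The cell cycle inhibitor p21 was among the strongest rises. CDKN1A (ENSG00000124762), which encodes it, reached 14122 and 13131 CPM in dBET6, against 125 and 126 CPM in DMSO (6.76 ± 0.11, adjusted p = 8.13e-26). That was a 109-fold difference under TMM and stood at 4.69 on the log2 scale under mitochondrial scaling. The wider list of CDK inhibitors, G1 cyclins and related cell cycle genes held 17 genes, of which 12 were tested. With CDKN1A included, 8 were lower and 3 higher (median -1.15, with 1 higher and 7 lower under all 4 scalings). The falls named next are of members that are neither CDK inhibitors nor cyclins. CDC25A, the phosphatase that activates CDK2, fell by 4.14, RBL1, the pocket protein p107, by 3.34, and CDK6 by 2.2. CCND1, cyclin D1, had 756 and 760 CPM in dBET6 and 556 and 518 CPM in DMSO (0.50 ± 0.08), a value that turned to -0.58 under total-count and -1.57 under mitochondrial scaling.

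Most targets of p53 rose under TMM. Of 34, 23 were higher and 5 lower (median 1.54, which was 0.47 under total-count and -0.52 under mitochondrial scaling), and 12 were higher and 5 lower under all 4 scalings. GADD45A, a growth-arrest gene, had 912 and 963 CPM in dBET6 and 22.6 and 21.5 CPM in DMSO (5.41 ± 0.10, adjusted p = 2.12e-25). PPM1D, the phosphatase WIP1 that switches the p53 pathway off, had 167 and 171 CPM in dBET6 and 8.77 and 8.77 CPM in DMSO (4.27 ± 0.10). Not every target followed: BAX, the pore-forming death effector, was at 39.7 and 35.4 CPM in dBET6 and 76.6 and 77.6 CPM in DMSO, and MDM4, an inhibitor of p53, fell by 1.54.

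In the BCL2 family, members of opposite function moved in the same direction. Of 17, 7 were higher and 8 lower (median -0.43, with 2 higher and 7 lower under all 4 scalings). The BH3-only death initiators BBC3, HRK and PMAIP1 had log2 fold changes of 3.82 ± 0.12, 2.61 ± 0.10 and 2.21 ± 0.10. BBC3 (PUMA) had 125 and 96.1 CPM in dBET6 and 7.52 and 8.17 CPM in DMSO. Of the survival proteins, BCL2L1 (BCL-XL) was at 17.4 and 13.9 CPM in dBET6 and 113 and 96.4 CPM in DMSO (-2.75 ± 0.12, rebuilt at 0.76 of the deposited FPKM), whereas MCL1 had 754 and 672 CPM in dBET6 and 231 and 235 CPM in DMSO (1.61 ± 0.09, but -0.45 under mitochondrial scaling). Death receptor, caspase and inhibitor-of-apoptosis genes fell in 19 of 29 cases and rose in 5 (median -0.60, with 0 higher and 18 lower under all 4 scalings). CASP2, an initiator caspase, fell by 4.02, and BIRC6 and XIAP, which restrain caspases, by 3.02 and 2.14.

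MYC, a gene often used to follow BET inhibition, was not lower. It had 221 and 228 CPM in dBET6, against 55.7 and 52.9 CPM in DMSO (2.05 ± 0.09, adjusted p = 1.22e-17), 0.97 under total-count scaling and -0.02 under mitochondrial scaling. Of the 13 genes of the MYC network 4 were higher and 6 lower (median 0.00, with 0 higher and 6 lower under all 4 scalings). MXD1, a partner of MAX that represses, had a value of 1.97 ± 0.11, which became -0.10 under mitochondrial scaling.

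Most immediate early genes rose under TMM, with a median that turned negative under mitochondrial scaling. Of 32 immediate early and AP-1 genes, 22 were higher and 9 lower (median 1.34, 0.27 under total-count and -0.73 under mitochondrial scaling), with 11 higher and 9 lower under all 4 scalings. EGR1, a zinc finger factor induced by ERK, had 1971 and 1849 CPM in dBET6 and 79.2 and 82.2 CPM in DMSO (4.57 ± 0.11, adjusted p = 1.10e-22), and FOS had 81.0 and 78.7 CPM in dBET6 and 2.74 and 2.65 CPM in DMSO. CYR61, a secreted matrix protein induced by serum and YAP, had 464 and 482 CPM in dBET6 and 16.9 and 15.8 CPM in DMSO. FOSL1, the AP-1 member FRA1, fell instead, with 288 and 263 CPM in dBET6 and 596 and 605 CPM in DMSO. The feedback genes of ERK split: 7 of 19 were higher and 11 lower (median -0.92, with 2 higher and 11 lower under all 4 scalings). DUSP8 and DUSP1, phosphatases of stress-activated and other MAP kinases, rose by 5.51 ± 0.20 and 3.02 ± 0.10, whereas DUSP6 and DUSP4, phosphatases of ERK, fell by 4.73 and 3.32 and ETV1, an ETS factor downstream of ERK, by 3.00. YAP and TEAD targets were higher in 11 of 26 cases and lower in 12 (median -0.29, with 4 higher and 10 lower under all 4 scalings). CTGF, a matricellular protein among them, had 143 and 133 CPM in dBET6 and 3.54 and 3.25 CPM in DMSO (5.34 ± 0.11).

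Inflammatory genes did not move one way. Of 31 NF-kB and cytokine genes, 13 were higher and 12 lower (median -0.16), and under all 4 scalings 2 were higher and 12 lower. Beside IL1B, the granulocyte growth factor CSF3 was at 3.5 and 4.24 CPM in dBET6 and 90.7 and 97.1 CPM in DMSO (-4.59 ± 0.15, adjusted p = 9.59e-20), and the IL6-family cytokine LIF fell by 2.60. In the other direction, CSF1, the macrophage growth factor, had 1272 and 1197 CPM in dBET6 and 273 and 281 CPM in DMSO (2.16 ± 0.09), and NFKBIZ, a nuclear cofactor of NF-kB, rose by 3.25 ± 0.12. Interferon-stimulated genes were higher in 10 of 37 cases and lower in 18 (median -0.75, with 2 higher and 16 lower under all 4 scalings). Class I HLA and peptide loading genes were higher in 17 of 21 and lower in 3 (median 1.17, 0.09 under total-count and -0.89 under mitochondrial scaling), but under all 4 scalings 0 were higher and 3 lower. NLRC5, the transactivator of class I genes, was at 10.3 and 8.23 CPM in dBET6 and 37.7 and 35.5 CPM in DMSO.

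Of 32 receptor tyrosine kinases and ligands, 16 were lower and 9 higher (median -0.65, with 2 higher and 15 lower under all 4 scalings), shares near those over all protein-coding genes (47.2% lower and 34.0% higher). EGFR was at 41.4 and 39.8 CPM in dBET6 and 162 and 156 CPM in DMSO (-1.97 ± 0.10, adjusted p = 3.26e-16), although the deposited FPKM gave a value of 0.60 for it, and EREG, an EGFR ligand, fell by 2.39. TGFBR2, the TGF-beta receptor, fell by 3.69, and among 34 TGF-beta and BMP genes 12 were higher and 14 lower (median -0.05, with 1 higher and 14 lower under all 4 scalings). GADD45B, a TGF-beta responsive stress gene, rose by 4.11 ± 0.10. Glioma stem cell factors were higher in 14 of 25 cases and lower in 9 (median 0.32, -0.76 under total-count and -1.75 under mitochondrial scaling), with 6 higher and 7 lower under all 4 scalings. POU3F2, a neural POU factor, had 4.74 and 4.80 CPM in dBET6 and 0.0600 and 0.263 CPM in DMSO (4.92 ± 0.39, 4.12 without DMSO replicate 1 and 6.18 without DMSO replicate 2), and BMI1, a Polycomb protein of stem cells, fell by 2.01.

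Most genes of oxidative stress defence rose under TMM, with a median below 0 under mitochondrial scaling. Of 27 NRF2-list genes, 21 were higher and 2 lower (median 1.42, 0.34 under total-count and -0.65 under mitochondrial scaling), with 9 higher and 2 lower under all 4 scalings. HMOX1, heme oxygenase 1, had 13319 and 12167 CPM in dBET6 and 825 and 821 CPM in DMSO (3.95 ± 0.11, adjusted p = 1.94e-21). SRXN1, sulfiredoxin, had 933 and 909 CPM in dBET6 and 49.1 and 49.2 CPM in DMSO, and OSGIN1 326 and 294 CPM in dBET6 and 14.7 and 15.8 CPM in DMSO. KEAP1, the adaptor that sends NRF2 for degradation, was at 19.2 and 18.7 CPM in dBET6 and 131 and 129 CPM in DMSO (-2.78 ± 0.10). The motif TGACNNNGC, the core of the antioxidant response element, was found in 4 of 19 windows of the list, against 14.7% of all windows.

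The integrated stress response and the unfolded protein response moved both ways, with 22 of 37 genes higher and 13 lower (median 0.60, -0.47 under total-count and -1.46 under mitochondrial scaling), and 3 higher and 13 lower under all 4 scalings. ATF3, a stress-induced factor, had 198 and 217 CPM in dBET6 and 9.85 and 11.6 CPM in DMSO (4.28 ± 0.11), and SESN2, an inhibitor of mTORC1 signalling, rose by 3.76 ± 0.11. Cytosolic chaperones were higher in 9 of 26 cases and lower in 9, with 1 higher and 8 lower under all 4 scalings. HSPA8, the constitutive HSP70, was at 182 and 212 CPM in dBET6 and 1234 and 1220 CPM in DMSO, whereas BAG3, a stress-induced cochaperone, had 807 and 755 CPM in dBET6 and 128 and 133 CPM in DMSO. Proteasome subunits fell in 23 of 37 cases and were higher in 9 (median -0.95, with 0 higher and 23 lower under all 4 scalings), a count of higher genes that ranged over 5 to 9 with 1 library left out. PSMC6, an ATPase of the regulatory particle, fell by 3.99.

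Metabolic genes were more often higher than lower under TMM. Cholesterol and fatty acid synthesis genes were higher in 22 of 32 cases and lower in 7 (median 0.90, -0.18 under total-count and -1.17 under mitochondrial scaling), with 1 higher and 7 lower under all 4 scalings. FASN, fatty acid synthase, had 1277 and 1133 CPM in dBET6 and 251 and 241 CPM in DMSO (2.29 ± 0.10, adjusted p = 1.97e-17), while SQLE, squalene epoxidase, fell by 1.73. Hypoxia and glycolysis genes were higher in 25 of 36 cases and lower in 6 (median 0.89, -0.19 under total-count and -1.17 under mitochondrial scaling), with 2 higher and 6 lower under all 4 scalings. SLC2A3, the glucose transporter GLUT3, had 789 and 846 CPM in dBET6 and 54.2 and 55.4 CPM in DMSO, PFKL, liver phosphofructokinase, rose by 2.27 ± 0.10, and HIF1A fell by 1.13. Of 48 autophagy and lysosome genes 24 were higher and 16 lower (median 0.19, -0.88 under total-count and -1.88 under mitochondrial scaling), with 2 higher and 16 lower under all 4 scalings. MAP1LC3B, an LC3 protein of autophagosomes, had 654 and 696 CPM in dBET6 and 78.8 and 74.9 CPM in DMSO, CTSD, the lysosomal protease cathepsin D, rose by 2.23 ± 0.10, and ATG5, which acts in LC3 conjugation, fell by 2.44. Of 14 polyamine genes 9 were higher and 4 lower (median 0.99, -0.09 under total-count and -1.07 under mitochondrial scaling), with 2 higher and 4 lower under all 4 scalings. Of 9 metallothioneins 5 were higher and 2 lower, with 2 higher and 2 lower under all 4 scalings. SAT1, which acetylates spermidine and spermine for export, rose by 4.01 ± 0.09, with 404 and 426 CPM in dBET6 and 25.9 and 25.7 CPM in DMSO, whereas AMD1, which supplies the aminopropyl donor, fell by 2.95.

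The 2 gene sets that build the ribosome moved in opposite directions under TMM. Of 78 cytosolic ribosomal protein genes, 77 were higher and 0 lower (median 2.10, 1.02 under total-count and 0.03 under mitochondrial scaling), with 21 higher and 0 lower under all 4 scalings. RPS26 was the 1 that did not pass (-0.12). RPL13A had 5993 and 6183 CPM in dBET6 and 910 and 961 CPM in DMSO (2.70 ± 0.09, adjusted p = 1.69e-19). Nucleolar ribosome biogenesis genes were lower in 31 of 44 cases and higher in 9 (median -1.13, 30 lower and 0 higher under all 4 scalings). DDX47 and BRIX1, which act in rRNA processing and large subunit assembly, were at 2.95 and 3.37 CPM and at 6.60 and 7.10 CPM in dBET6, and at 45.1 and 43.5 CPM and 76.5 and 69.7 CPM in DMSO. Mitochondrial ribosomal protein genes fell in 50 of 73 cases and were higher in 14 (median -1.04, with 0 higher and 47 lower under all 4 scalings), MRPL46 by 3.51. Of 75 nuclear genes of oxidative phosphorylation, 58 were higher and 14 lower under TMM (median 1.09, 0.01 under total-count and -0.98 under mitochondrial scaling), with 0 higher and 9 lower under all 4 scalings. COX8A, a cytochrome oxidase subunit, had 1259 and 1307 CPM in dBET6 and 253 and 258 CPM in DMSO, while NDUFV2 and NDUFAB1, of complex I, fell by 1.81 and 1.69. Of the 13 mitochondrially encoded mRNAs 12 were higher and 0 lower (median 2.15, with 1 higher and 0 lower under all 4 scalings). Mitochondrial scaling is set by these same mRNAs and holds their median near 0 (0.09). For this list the count under all 4 scalings is therefore no check of the rise.

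Replication-dependent histone mRNAs showed the largest median of any list examined. These mRNAs normally end in a stem-loop with no poly(A) tail and are made in S phase, so in polyadenylated RNA they are usually scarce. Of 29 that could be tested, 28 were higher and 0 lower (median 5.14, 4.06 under total-count and 3.07 under mitochondrial scaling), and 23 were higher under all 4 scalings. HIST1H2BK, the remaining 1, did not pass and was rebuilt poorly. HIST2H2BE had 978 and 922 CPM in dBET6 and 4.22 and 3.75 CPM in DMSO (7.89 ± 0.11, adjusted p = 4.15e-27), HIST1H2AC 227 and 226 CPM in dBET6 and 9.05 and 9.47 CPM in DMSO, and HIST1H2AG 81.4 and 74.7 CPM in dBET6 and 0.400 and 0.574 CPM in DMSO. HIST2H2AA4 and HIST2H3C, whose counts are shared with near-identical copies, had values of 4.74 ± 0.10 and 8.99 ± 0.55. Together the histone genes took 0.227% and 0.205% of counts in dBET6 and 0.00884% and 0.00914% in DMSO. A further 34 histone genes had no paired transcript and were read in the deposited FPKM table, where all 34 were higher in both dBET6 libraries than in both DMSO libraries, with a median over genes of the group mean of 39.1 FPKM in dBET6 and 0.978 FPKM in DMSO.

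The promoters of 2 of these histone genes are shown because TATA and CCAAT boxes recur in the family, with matches to TATAAA and CCAAT on either strand in capitals (RefSeq, GRCh38.p14). HIST2H2BE, now H2BC21, lies on the minus strand at chr1:149886633-149886932 and HIST1H2AC, now H2AC6, on the plus strand at chr6:26123922-26124221.
HIST2H2BE: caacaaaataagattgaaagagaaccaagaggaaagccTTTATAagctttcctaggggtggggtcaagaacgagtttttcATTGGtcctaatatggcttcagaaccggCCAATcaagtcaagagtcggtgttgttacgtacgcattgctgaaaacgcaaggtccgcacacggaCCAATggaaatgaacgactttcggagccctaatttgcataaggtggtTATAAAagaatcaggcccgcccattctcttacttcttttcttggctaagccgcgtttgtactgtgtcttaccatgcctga
HIST1H2AC: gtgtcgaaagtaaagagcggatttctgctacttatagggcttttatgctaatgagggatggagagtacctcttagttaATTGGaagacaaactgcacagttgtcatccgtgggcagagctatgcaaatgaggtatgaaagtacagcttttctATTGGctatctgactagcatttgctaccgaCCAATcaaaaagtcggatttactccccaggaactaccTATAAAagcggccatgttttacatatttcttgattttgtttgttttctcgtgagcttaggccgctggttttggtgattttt
Among the 26 histone genes with a window, 18 (69.2%) held TATAAA and 23 (88.5%) held CCAAT, against 6.32% and 36.5% of all windows. The replication-independent histones, which carry poly(A) tails, were higher in 7 of 11 cases and lower in 3 (median 1.30, 0.22 under total-count and -0.77 under mitochondrial scaling), with 3 higher and 2 lower under all 4 scalings. H1F0 and H1FX, linker histones of resting cells, had 755 and 691 CPM and 1848 and 1642 CPM in dBET6, and 28.2 and 27.6 CPM and 76.0 and 73.6 CPM in DMSO. H3F3B, a source of H3.3, rose by 3.18 ± 0.09, and CENPA, the centromeric H3, fell by 2.05.

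Most SWI/SNF, splicing factor and nuclear envelope genes were lower, while histone deacetylase and Polycomb genes were lower in a share nearer to that of all protein-coding genes (47.2%). SWI/SNF genes were lower in 18 of 25 cases and higher in 6 (median -1.11, with 0 higher and 18 lower under all 4 scalings). The 6 included ACTB, actin, at 16931 and 17093 CPM in dBET6 and 4020 and 4028 CPM in DMSO, most of the list's summed level of 18195 to 18329 CPM in dBET6 and 5586 to 5602 CPM in DMSO. SMARCB1, a core subunit, was at 7.14 and 7.73 CPM in dBET6 and 66.4 and 66.9 CPM in DMSO. Histone deacetylase and Polycomb genes were lower in 16 of 29 and higher in 6 (median -0.58, with 0 higher and 15 lower under all 4 scalings): RNF2, the PRC1 ubiquitin ligase, fell by 4.19, and SUZ12, a core subunit of PRC2, by 2.59. SR splicing factor and snRNP genes were lower in 26 of 39 and higher in 8 (median -0.70, with 1 higher and 24 lower under all 4 scalings), and SNRPD1 fell by 2.82. Lamin and nuclear envelope genes were lower in 16 of 22 and higher in 4 (median -1.12, with 0 higher and 16 lower under all 4 scalings). ABC transporters, which include drug efflux pumps, divided into 12 higher and 10 lower of 26, with 1 higher and 10 lower under all 4 scalings, and ABCE1, a ribosome recycling factor of this family, fell by 3.06.

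Secreted and matrix genes moved both ways. TIMP1, an inhibitor of matrix metalloproteases, had 6964 and 6848 CPM in dBET6 and 623 and 682 CPM in DMSO (3.40 ± 0.10, adjusted p = 6.93e-21). The collagen chain COL1A2 was instead at 25.3 and 23.7 CPM in dBET6 and 294 and 290 CPM in DMSO (-3.58 ± 0.10), and ITGA2, a collagen-binding integrin, fell by 3.37. Of 43 matrix and adhesion genes 22 were higher and 9 lower (median 0.40, -0.59 under total-count and -1.58 under mitochondrial scaling), with 2 higher and 8 lower under all 4 scalings. Of 16 plasminogen system genes, 10 were higher and 6 lower (median 0.71, -0.36 under total-count and -1.35 under mitochondrial scaling), with 1 higher and 4 lower under all 4 scalings.

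**Figure D3:**
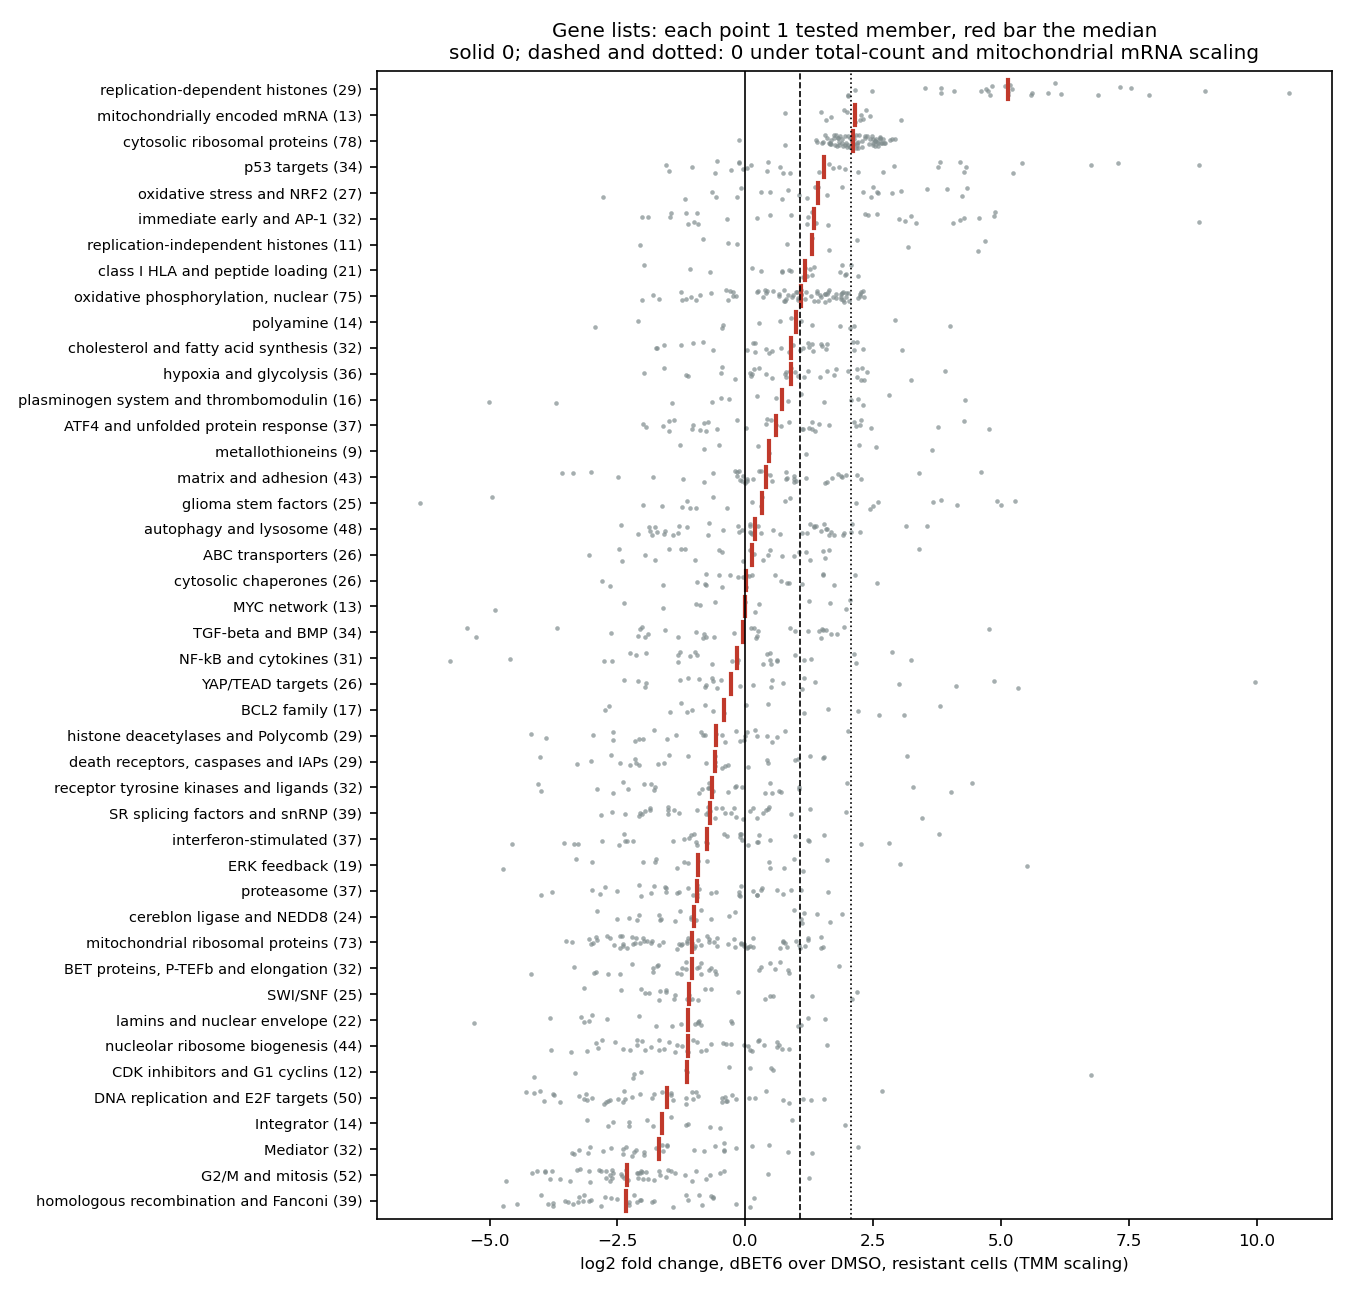
Log2 fold change, dBET6 over DMSO in resistant cells under TMM scaling, of each tested member (points) and the median (red bar) of each gene list. The solid line marks 0, and the dashed and dotted lines mark where 0 lies under total-count and mitochondrial scaling. Replication-dependent histones (5.14) and ribosomal protein genes (2.10) lie at the high end, and homologous recombination (-2.34) and G2/M genes (-2.32) at the low end.

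Gene properties outside any list also varied with the response. Protein-coding genes were sorted into 5 equal parts by their level in DMSO. The median log2 fold change was 1.54 in the lowest, then -0.54, -1.08, -0.89, and 0.00 in the highest, so that genes of middle abundance fell most. Since the DMSO level is also the denominator of the fold change, this is a description with no test. By transcript length the medians ran 0.43, -0.14, -0.34, -0.52 and -0.76 from the shortest to the longest of 5 equal parts, with 47.1% of the shortest and 24.7% of the longest higher, and 31.7% and 58.6% lower. Classes of RNA differed too: 30 of 35 tested snRNA genes were higher (median 4.53), the median was 0.86 over 1401 lincRNA genes, 0.56 over antisense RNAs and -0.29 over protein-coding genes. The 3 genes MIR3648, MIR3687 and MIR663A, named for microRNAs, were grouped here as genes of the ribosomal DNA region. Together they took 1.60% and 1.36% of counts in dBET6, against 0.00551% and 0.00732% in DMSO. Ribosomal RNA pseudogene transcripts took 0.140% and 0.126% in dBET6 and 0.00303% and 0.00397% in DMSO. Mitochondrial ribosomal RNA took 1.01% and 0.943% in dBET6 and 0.336% and 0.424% in DMSO. What these shares mean for the histone and snRNA rises was not tested. Whether the counting used strand is not stated, so reads of antisense genes and their partners cannot be told apart.

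**Figure D4:**
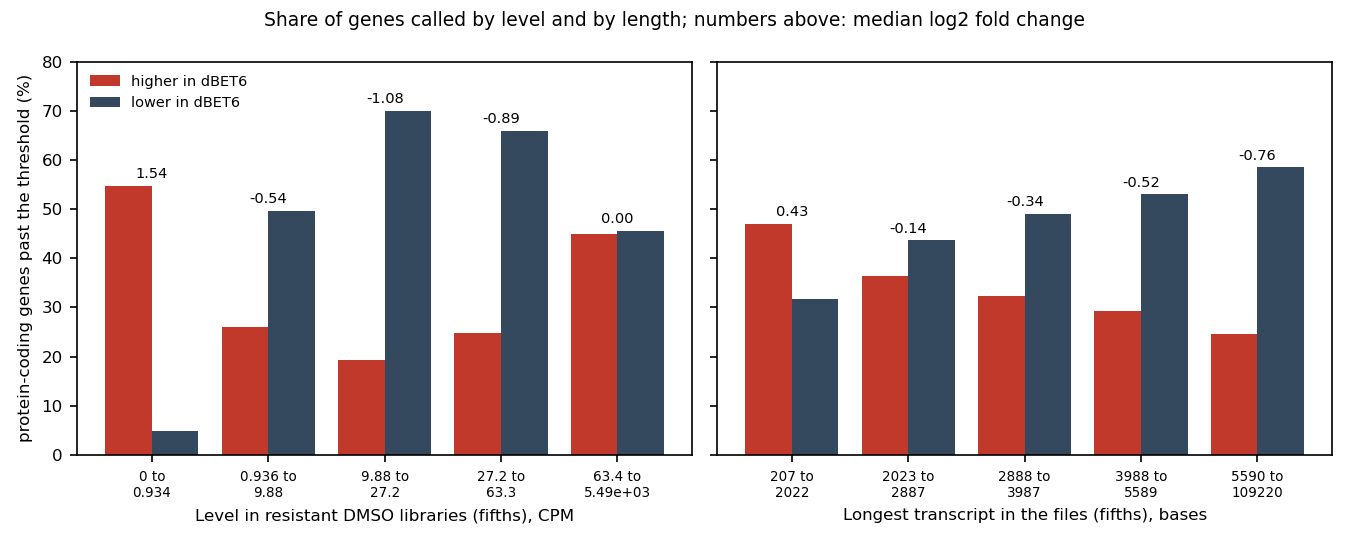
Percent of protein-coding genes called higher and lower in dBET6 than in DMSO, in 5 equal parts by level in DMSO (CPM) and by transcript length (bases), with the median log2 fold change printed above each pair of bars. Under TMM the medians dip in the middle parts of level (-1.08 in the one with the largest share of lower genes). By length they fall from 0.43 in the shortest to -0.76 in the longest part.

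Whether the resistant line answered dBET6 differently from parental cells was tested as the response in resistant cells minus that in parental cells, in the same fit. The difference passed for 5333 genes (27.9%), with 2617 (13.7%) higher and 2716 (14.2%) lower in the resistant response. Scaling by total counts moved the median of these differences to -0.49, with 910 genes higher and 6534 lower, and scaling by mitochondrial mRNAs to -0.34, with 387 higher and 2340 lower. MYC had the largest difference of the 12 panel genes: resistant cells had 221 and 228 CPM in dBET6 and 55.7 and 52.9 CPM in DMSO, while parental cells had 65.3 and 55.8 CPM in dBET6 and 68.7 and 70.0 CPM in DMSO (difference 2.24 ± 0.12, adjusted p = 3.67e-13, and 1.81 and 1.95 under the other scalings). METTL7B, a membrane-bound thiol methyltransferase, differed by 4.03 ± 0.13, with 930 and 947 CPM in resistant dBET6 and 44.3 and 49.3 CPM in resistant DMSO libraries, against 45.7 and 40.1 CPM in parental dBET6 and 35.0 and 35.0 CPM in parental DMSO libraries. In both genes the parental libraries lay close together and the resistant dBET6 libraries stood apart.

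The responses of other named genes differed in size. CDKN1A (difference 0.91 ± 0.13), GADD45A (1.91 ± 0.12), BTG2 (1.52 ± 0.21) and HIST2H2BE (1.85 ± 0.15) rose in both lines and further in the resistant one, although the difference for CDKN1A did not pass under mitochondrial scaling. DUSP8 had the difference 3.70 ± 0.29, with 5.85 and 5.90 CPM in parental dBET6 and 1.41 and 1.96 CPM in parental DMSO libraries. SRXN1 (-1.29 ± 0.12), OSGIN1 (-1.38 ± 0.14) and NECAB2 (-3.15 ± 0.21) rose in both lines and further in the parental one, where SRXN1 had 2795 and 2617 CPM in dBET6 and 57.1 and 60.8 CPM in DMSO. CSF3 fell further in resistant cells (-3.27 ± 0.18), its parental level being 52.6 and 50.6 CPM in dBET6 and 114 and 144 CPM in DMSO. COL1A2 (-2.73 ± 0.13), IL1B (-2.21 ± 0.23), CRBN (-1.03 ± 0.19) and DTL (-1.78 ± 0.21) likewise fell further in the resistant line. HEXIM1 was at 30.3 and 33.1 CPM in parental dBET6 and 29.5 and 37.6 CPM in parental DMSO libraries and differed by -1.08 ± 0.15. CDC27, a subunit of the anaphase-promoting complex, was at 118 and 131 CPM in parental dBET6 and 99.9 and 92.2 CPM in parental DMSO libraries, and at 16.4 and 17.5 CPM in resistant dBET6 and 116 and 112 CPM in resistant DMSO ones (-3.12 ± 0.13, adjusted p = 1.64e-15). ZBTB41, a zinc finger gene, had opposite signs, -1.71 in resistant and 1.75 in parental cells.

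Some differences rested on levels near 0 in DMSO. UBE2K, a ubiquitin-conjugating enzyme, was at 1.58 and 1.43 CPM in resistant dBET6 and 0.26 and 0.287 CPM in resistant DMSO libraries, against 8.23 and 7.25 CPM in parental dBET6 and 38.6 and 39.4 CPM in parental DMSO ones, a difference of 4.78 ± 0.34. FBXW10 had 5.36 and 4.11 CPM in resistant and 46.1 and 50.7 CPM in parental dBET6 libraries and at most 0.180 CPM in any DMSO library of either line (-4.12 ± 0.64, and -5.02 without parental DMSO replicate 1). RASD2 and POU3F2 differed by 5.18 ± 0.57 and 3.96 ± 0.51. Leaving out resistant DMSO replicate 1 gave 8.77 and 3.21 for them, and leaving out resistant DMSO replicate 2 gave 4.36 and 5.27.

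By list, the difference was most regular for ribosomal protein genes, where 75 of 78 were higher and 0 lower in the resistant response (median 0.89, with list medians of 2.10 in resistant and 1.26 in parental cells). It was higher for 23 of 36 hypoxia and glycolysis genes and lower for 4, for 18 of 32 cholesterol genes with 0 lower, for 43 of 75 oxidative phosphorylation genes with 4 lower, and for 12 of 29 replication-dependent histones with 0 lower. It was lower for 26 of 50 replication genes with 6 higher (median -0.47), for 12 of 32 BET and elongation genes with 0 higher, and for 8 of 27 NRF2-list genes with 4 higher. G2/M genes fell in both lines, with medians of -2.32 in resistant and -2.11 in parental cells, and 13 of 52 differed downward and 2 upward. The median difference was 0.53 for hypoxia, 0.46 for cholesterol, 0.45 for oxidative phosphorylation and 0.90 for histone genes. Under total-count scaling these medians were 0.09, 0.03, 0.02 and 0.46 in the same order, and that of ribosomal protein genes was 0.45. Under that scaling the medians of replication, BET and elongation, NRF2-list and G2/M genes were -0.90, -0.72, -0.71 and -0.64, beside the -0.49 of all genes.

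**Figure D5:**
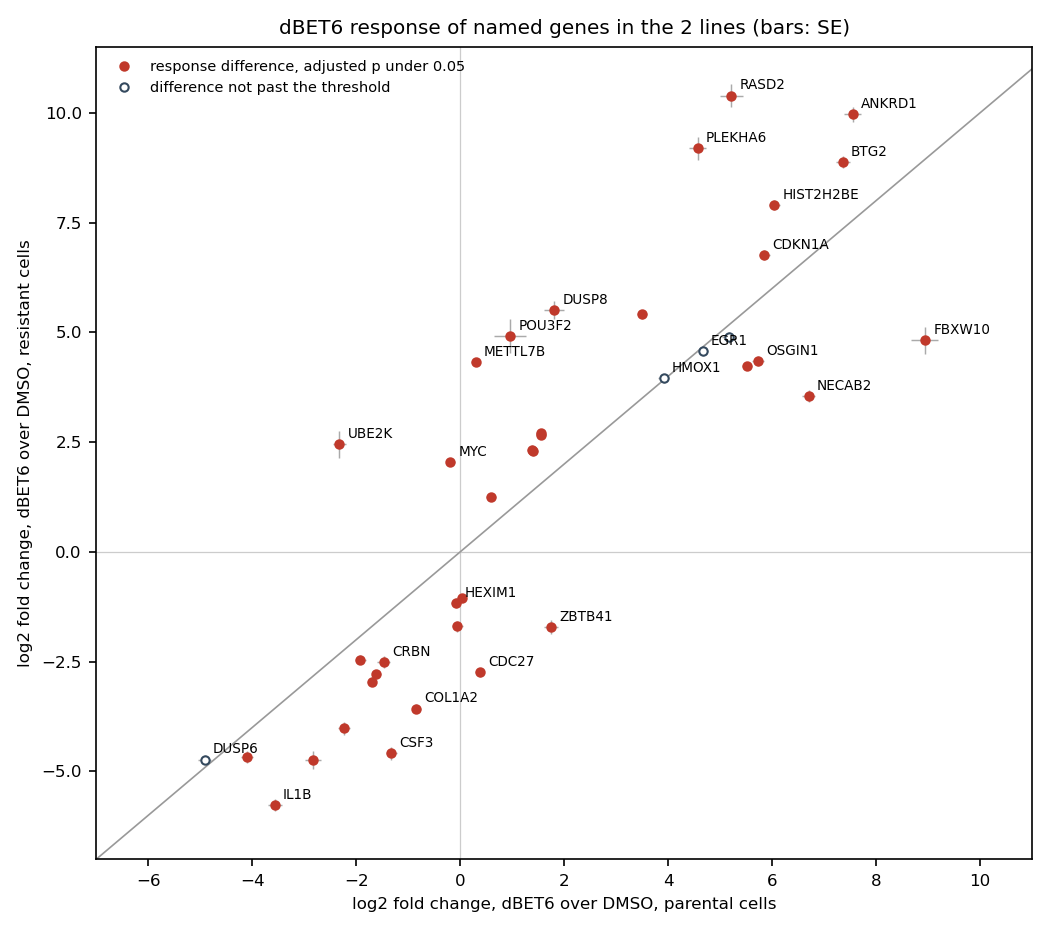
Log2 fold change, dBET6 over DMSO, of named genes in resistant cells (vertical axis) and parental cells (horizontal axis), with standard errors as bars (n = 2 libraries each), filled where the difference between the responses passed the test. The diagonal marks equal responses. MYC (2.05 in resistant, -0.19 in parental) and METTL7B (4.33 and 0.30) lie above it.

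Whether the 2 compounds left different transcripts in the resistant cells was tested as dBET6 against JQ1, both at 1000 nM for 24 h. The compounds share a JQ1-type BET ligand, and dBET6 adds a linker and a cereblon ligand. In this design degradation, potency and other effects of the added parts cannot be told apart. Of 19093 genes, 6767 (35.4%) were higher and 7401 (38.8%) lower in dBET6 than in JQ1, 74.2% in all. Only this 1 pair of compounds was compared, and total-count and mitochondrial scaling moved the median gene of this comparison to -0.90 and -1.50, with 3713 and 2016 genes higher and 10457 and 12112 lower. HEXIM1 lay on opposite sides of DMSO with the 2 compounds, with 21.1 and 22.6 CPM in dBET6 and 207 and 201 CPM in JQ1 (-3.22 ± 0.11, adjusted p = 1.70e-19), where DMSO libraries had 47.0 and 51.0 CPM. BRD2 was at 131 and 130 CPM in dBET6 and 292 and 296 CPM in JQ1 (-1.17 ± 0.08). CDKN1A had 14122 and 13131 CPM in dBET6 and 324 and 340 CPM in JQ1 (5.36 ± 0.11), and BTG2 had 982 and 865 CPM in dBET6 and 2.85 and 3.39 CPM in JQ1. For BTG2 the JQ1 libraries lay near those of DMSO, for CDKN1A they lay between, and in both the dBET6 libraries stood far above.

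The compounds came closer elsewhere. IL1B was at 2.13 and 2.99 CPM in dBET6 and 2.53 and 2.21 CPM in JQ1 (0.12 ± 0.19, 95% interval -0.34 to 0.58, adjusted p = 0.568), a difference that did not pass and that turned to -0.76 under total-count and -1.36 under mitochondrial scaling. MYC had 221 and 228 CPM in dBET6 and 115 and 115 CPM in JQ1 (0.96 ± 0.09, but -0.52 under mitochondrial scaling). HIST1H2AC had 227 and 226 CPM in dBET6 and 146 and 154 CPM in JQ1 (0.59 ± 0.08, but -0.29 under total-count and -0.90 under mitochondrial scaling), whereas HIST2H2BE had 978 and 922 CPM in dBET6 and 112 and 114 CPM in JQ1 (3.07 ± 0.09). Among the largest differences upward were LYZ, with 1 count in the JQ1 libraries (ratio 2919, interval 523 to 115400, fitted at 10.28 without JQ1 replicate 1 and 13.28 without JQ1 replicate 2), RASD2 and TMEM119, a microglial membrane protein, with 64.7 and 60.8 CPM in dBET6 and 0.135 and 0.131 CPM in JQ1. MGA (-4.99 ± 0.16, -5.61 without dBET6 replicate 1), IWS1, an elongation partner of SPT6 (-4.42 ± 0.16), UMPS (-4.66 ± 0.24), NBEA (-4.75 ± 0.53, rebuilt at 0.78 of the deposited FPKM) and OSBPL11 (-4.32 ± 0.17) were among the lowest, and JQ1 libraries of MGA, at 59.4 and 59.5 CPM, lay beside those of DMSO. By list under TMM, 42 of 52 G2/M genes were lower and 2 higher in dBET6 than in JQ1, and 34 of 39 recombination genes were lower and 2 higher. Of 78 ribosomal protein genes 77 were higher and 0 lower, and of 34 p53 targets 23 were higher and 5 lower. The list medians were -1.37, -1.91, 1.605 and 1.34 in that order. These lists were not counted under total-count or mitochondrial scaling, which moved the median gene to -0.90 and -1.50. The rises are therefore given for TMM only, and whether they hold under those scalings was not tested.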

How the data were processed

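Polyadenylated RNA of U87 cells was sequenced in 12 libraries, 2 in each of 6 groups. The submitters' processing notes name kallisto, DESeq2 and hg19, without versions. The authors deposited, per the file headers, estimated counts and TPM per transcript for each library, and FPKM per gene for each line. Here the estimated counts were summed per gene through the GENCODE v29 pairing of transcripts and genes, which covered 92.1% of transcripts and 94.7% to 96.2% of counts, and were rounded to whole numbers. Summed TPM matched the deposited FPKM within 1% for 79.7% of genes above 1 FPKM in every library, and was below 0.8 of it for 5.99%, so genes rebuilt poorly are named where used. Promoters come from a RefSeq table of build GRCh38.p14, which was not used for coordinates of the files.

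Differences were tested with edgeR 4.0.16 (R 4.3.3), robust quasi-likelihood, TMM scaling, genes kept by filterByExpr, all 12 libraries in 1 fit and 1 term per group, with Benjamini-Hochberg adjusted p under 0.05. Standard errors are the log2 fold change divided by the square root of F. Alternatives used RLE, total-count and mitochondrial mRNA scaling, DESeq2 1.42.0, limma 3.58.1 on log2(TPM + 1), log2(TPM + 0.1) and log2(FPKM + 1), other filters, the 4 libraries alone and leaving out each library. The 44 gene lists, the 10 marker lists and the comparison were chosen with earlier results of these data known. Named are the 12 highest and 12 lowest protein-coding genes averaging 10 CPM or more whose groups do not overlap, 12 panel genes, up to 4 members of each list per direction by smallest p, and 5 each way for the other comparisons, and the text prints part of them. Markers ITGAM, CD14, CD68 and NES come from the marker list, and list members that did not pass are named after their values were seen. Replicate numbers come with no label of a shared batch, and the deviations of same-numbered dBET6 and DMSO libraries correlated at -0.104, so no pairing was used. Ratios against 1 to 3 counts carry 95% exact counting intervals, which cover counting error only. Some genes that the naming rule covers are not reported here.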

Additional observations from a re-analysis of the deposited data

Results flagged for a closer look

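Among the 40 named genes whose dBET6 response was compared between the lines, 36 differed by the test of the difference itself (edgeR quasi-likelihood, adjusted p under 0.05), 17 with a higher and 19 with a lower response in resistant than in parental cells. All values here are log2 differences between the 2 responses. No cause was tested.

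The higher ones included transcripts near 0 in resistant DMSO libraries: RASD2 (5.18), UBE2K (4.78), PLEKHA6 (4.63), POU3F2 (3.96), DUSP8 (3.70) and ANKRD1 (2.42). Leaving out resistant DMSO replicate 1 gave 5.94 for PLEKHA6. METTL7B (4.03) and MYC (2.24) had parental responses of 0.30 and -0.19. The stress, arrest and histone genes GADD45A (1.91), HIST2H2BE (1.85), BTG2 (1.52) and CDKN1A (0.91) rose in both lines. Smaller differences upward were those of RPL13A (1.15), TK1 (1.11), COX8A (0.94), FASN (0.89) and FOXM1 (0.67).

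The lower ones included genes with opposite signs or little movement in parental cells, namely ZBTB41 (-3.46), CDC27 (-3.12), NDUFAB1 (-1.63), HEXIM1 (-1.08) and E2F1 (-1.08). FBXW10 (-4.12), NECAB2 (-3.15), OSGIN1 (-1.38) and SRXN1 (-1.29) rose further in parental cells. CSF3 (-3.27), COL1A2 (-2.73), IL1B (-2.21), BARD1 (-1.90), DTL (-1.78), MEPCE (-1.25), KEAP1 (-1.17), CRBN (-1.03), AURKA (-0.57) and BRD3 (-0.53) fell in both lines and further in resistant cells. The call for AURKA was lost without parental dBET6 replicate 1 (-0.35) and without 5 other single libraries. Under mitochondrial scaling 6 of the 40 genes lost the call, namely AURKA, BRD3, CDKN1A, COX8A, FASN and FOXM1, and under total-count scaling FOXM1 did. With limma on TPM or FPKM the call was lost in at least 1 setting for AURKA, BARD1, BRD3, COX8A, CRBN, FASN, FOXM1 and PLEKHA6, and with the DESeq2 Wald test for AURKA.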

How the results depend on the processing

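Counts of higher and of lower genes both moved with the scaling, the filter and the unit. For dBET6 over DMSO in resistant cells (6813 higher and 7542 lower), total-count scaling gave 3307 and 11381 and mitochondrial mRNA scaling 1389 and 14150. A mean of at least 10 CPM, which leaves fewer genes to test, gave 3498 and 4027. Limma on log2(TPM + 1) gave 932 and 11755, on log2(TPM + 0.1) 906 and 11712, and on log2(TPM + 1) with no filter 2043 and 13611. In TPM the 3 genes MIR3648, MIR3687 and MIR663A took 12% and 9.70% in dBET6 libraries, against 0.0613% and 0.0773% in DMSO libraries. Their part in the TPM results was not tested. For the response difference (2617 higher and 2716 lower) the higher count was 910 under total-count, 387 under mitochondrial scaling, and 687, 576 and 842 under the 3 TPM settings in the same order, and the lower count was 6534 under total-count scaling and 1320 on log2(FPKM + 1). For dBET6 over JQ1 (6767 higher and 7401 lower) the higher count was 3713 under total-count and 2016 under mitochondrial scaling, 3415 at 10 CPM, and 1183, 1162 and 2233 under the TPM settings, and the lower count was 12112 under mitochondrial scaling, 3984 at 10 CPM and 11834 on TPM with no filter. The cause of these shifts beyond the scaling itself was not tested.

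Leaving out 1 library gave 6254 to 6420 higher and 7245 to 7387 lower genes for dBET6 over DMSO, 2072 to 2679 and 2021 to 2421 for the response difference, and 6101 to 6304 and 7104 to 7177 for dBET6 over JQ1. A replicate block, for numbers that no label ties to a shared batch, gave 6756 and 7509 for dBET6 over DMSO, 2563 and 2637 for the response difference and 6708 and 7393 for dBET6 over JQ1, and changed no call among the named genes. Crossed numbers, tried after seeing the data, gave 6775 and 7526.

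Of 2364 values of named genes for dBET6 over DMSO under an alternative, 2293 kept direction and side of the threshold, 33 lost the call and 38 reversed. Reversed means that the sign changed and that the main or the alternative value passed the test. The word therefore also covers values near 0 that need not pass under the alternative, such as -0.0225 for MYC. Of 794 values of the response difference 746 kept both, 37 lost the call, 4 gained it and 7 reversed, and of 351 for dBET6 over JQ1 334 kept both, 2 lost the call, 1 gained it and 14 reversed. Total-count scaling reversed BRD2 (-0.22), CCND1 (-0.58), SUPT5H (-0.40), BIRC5 (-0.63), the response difference of HMOX1 (-0.40), and the dBET6 over JQ1 values of IL1B (-0.76) and HIST1H2AC (-0.29). Mitochondrial scaling reversed BRD2 (-1.20), MYC (-0.0225), CCND1 (-1.57), SUPT5H (-1.40), NEDD8 (-0.18), DDB1 (-0.92), FOXM1 (-0.82), BIRC5 (-1.62), MCL1 (-0.45), MXD1 (-0.10), INTS1 (-0.12) and VIM (-0.20), and against JQ1 IL1B (-1.36), MYC (-0.52) and HIST1H2AC (-0.90). On log2(TPM + 1), with and without the filter, BRD2 (-0.70), CCND1 (-0.89), SUPT5H (-0.67), DDB1 (-0.54), FOXM1 (-0.53), BIRC5 (-1.05) and INTS1 (-0.0782) reversed, as did the response difference of DUSP6 (-0.96), that of HMOX1 with the filter (-0.41), and against JQ1 IL1B (-0.63), MYC (-0.51) and HIST1H2AC (-0.69). On log2(TPM + 0.1) the same genes had BRD2 -0.72, CCND1 -0.89, SUPT5H -0.67, DDB1 -0.55, FOXM1 -0.54, BIRC5 -1.08 and INTS1 -0.0796, the response difference of HMOX1 -0.42, and against JQ1 IL1B -0.94, MYC -0.52 and HIST1H2AC -0.69. On log2(FPKM + 1) EGFR was 0.60 and the response differences of DUSP6 and FOS were -0.36 and 0.47.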
